A study of Mus musculus with 14 samples.

Results

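The cytosolic ribosomal protein genes encode the protein part of the 2 subunits of the ribosome, the particle that makes proteins in the cytoplasm. Of the 12393 genes that the array reads through a probe set with 1 gene symbol, 49 were taken as ribosomal protein genes because their symbol starts with Rpl or Rps and a number, or is Rplp0, Rplp2 or Rpsa. The large subunit gave 26 genes and the small subunit 23. They were read from 101 probe sets, and where a gene had several, the one brightest on average in hematopoietic stem cells (HSC) of wild-type (WT) mice (8 arrays) stood for it. A further 53 symbols of ribosomal proteins or their pseudogenes stand only on probe sets that list several symbols, among them Rpl5, Rplp1 and Rps13, and were not analysed here.

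The Affymetrix MOE430A array was used throughout, 14 times in all, and the 2 arrays of each of the 7 groups are called A and B. The groups were HSC of WT male C57Bl/6 mice of 2, 6, 12 and 21 mo, whole bone marrow (WBM) of such mice of 2 mo, and HSC of 12-mo-old male p53+/- and p53+/m mice. The paper states that the p53 mice had been back-crossed to C57Bl/6 for several generations. Remaining differences of background cannot be told apart from genotype in the comparisons with WT. The p53+/- mice carry a single working copy of the tumor suppressor p53, and the p53+/m mice carry a truncated allele, m, beside the normal one, with a p53 response above that of WT. HSC were sorted as side population cells, which efflux a DNA dye, that carried Sca-1 and c-Kit but no marker of a mature lineage. The RNA of an HSC array came from a pool of 2 to 5 mice, and no pooling is stated for WBM. The paper describes 2 rounds of linear amplification for the RNA of HSC and does not name WBM there. The ages used here are those of the sample titles and the treatment field, since a further field of the labels sets all samples at 2 mo. Trp53, the p53 gene itself, has no probe set with a single symbol and could not be used to check the genotypes.

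Ribosomal proteins are made in near-equal numbers, are folded onto ribosomal RNA in the nucleolus, and are degraded when in excess. Their messages are abundant and stable, and most begin with a run of pyrimidines (C or T) at the transcription start, the 5′ terminal oligopyrimidine tract, through which mTOR signaling sets how much of the message is translated. HSC make protein slowly compared with the progenitors they give rise to, and loss of a single copy of several ribosomal protein genes causes Diamond-Blackfan anemia, a failure of red cell production in which free ribosomal proteins such as RPL11 activate p53 by binding its inhibitor MDM2.

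The annotated starts of part of the genes show such a run. Windows from 20 bases before to 10 bases after the RefSeq start (build GRCm38.p6) are shown, 5′ to 3′ on the gene's strand, for 11 genes that recur in the results, with the longest run of pyrimidines in capitals.
Rpl14: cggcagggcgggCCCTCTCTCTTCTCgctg
Rpl35: gaagtcggccccgCCCTTTCCTCTTTCTCT
Rpl38: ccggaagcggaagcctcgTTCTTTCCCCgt
Rplp2: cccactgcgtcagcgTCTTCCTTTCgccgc
Rps10: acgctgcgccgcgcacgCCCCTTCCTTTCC
Rps18: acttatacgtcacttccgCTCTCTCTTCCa
Rps6: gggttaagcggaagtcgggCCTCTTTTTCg
Rps15: gCCCTCCCggcagagctcgcgataactgcg
Rps25: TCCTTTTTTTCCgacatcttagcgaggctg
Rpsa: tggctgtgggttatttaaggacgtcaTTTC
Rps26: agcgggtcgggcaagccgccggaTCCTCTT
In the 7 windows shown before that of Rps15 the annotated start is a C followed by 4 pyrimidines, the form that such a tract takes. In the other 4 windows it is not, and the annotated start may lie some bases from the one in use in these cells. The windows lie at chr9:120571497-120571526 for Rpl14, chr2:39005122-39005151 for Rpl35 (minus strand), chr11:114668560-114668589 for Rpl38, chr7:141447631-141447660 for Rplp2, chr17:27635235-27635264 for Rps10 (minus strand) and chr17:33955656-33955685 for Rps18 (minus strand). Those of the other genes lie at chr4:86857358-86857387 for Rps6 (minus strand), chr10:80292411-80292440 for Rps15, chr9:44407694-44407723 for Rps25, chr9:120127746-120127775 for Rpsa and chr10:128626497-128626526 for Rps26 (minus strand). The strand is plus where none is given.

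Promoter sequence (250 bases before to 50 after the start) was given for 42 of the 49 genes. A C at the start followed by 4 pyrimidines stood in 8 of the 42 genes (19.05%), compared with 3.03% of the 9887 genes of the array with such sequence and 2.51% of all 32851 promoters. A run of 8 or more pyrimidines within the window of 20 bases before to 10 after the start was present in 19 of the 42 (45.2%), compared with 15.7% of array genes and 12.6% of all promoters. The motif CCGGAAG, searched on both strands as a form that ETS factors bind, was present in 21 of the 42 (50.0%), compared with 16.3% of array genes and 8.86% of all promoters. The letters TATAAA, searched on both strands, were present in 6 of the 42 (14.3%), beside 11.9% of array genes and 13.6% of all promoters. These are matches of letters and not measured sites.

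Most of the genes gave strong signals. On 34 of the 49 the mean over the 8 WT HSC arrays was above log2 12. The signals of 4 genes stayed under log2 5 on all 14 arrays and are treated as not detected. They were Rpl3l, a form of Rpl3 known from muscle, Rpl39l, a form of Rpl39 known from testis, Rps4l, and the probe set of Rps27. The remaining 45 genes, 24 of the large and 21 of the small subunit, are the detected genes in what follows. The heatmap of deviations by array shows where they lay.

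**Figure D1:**
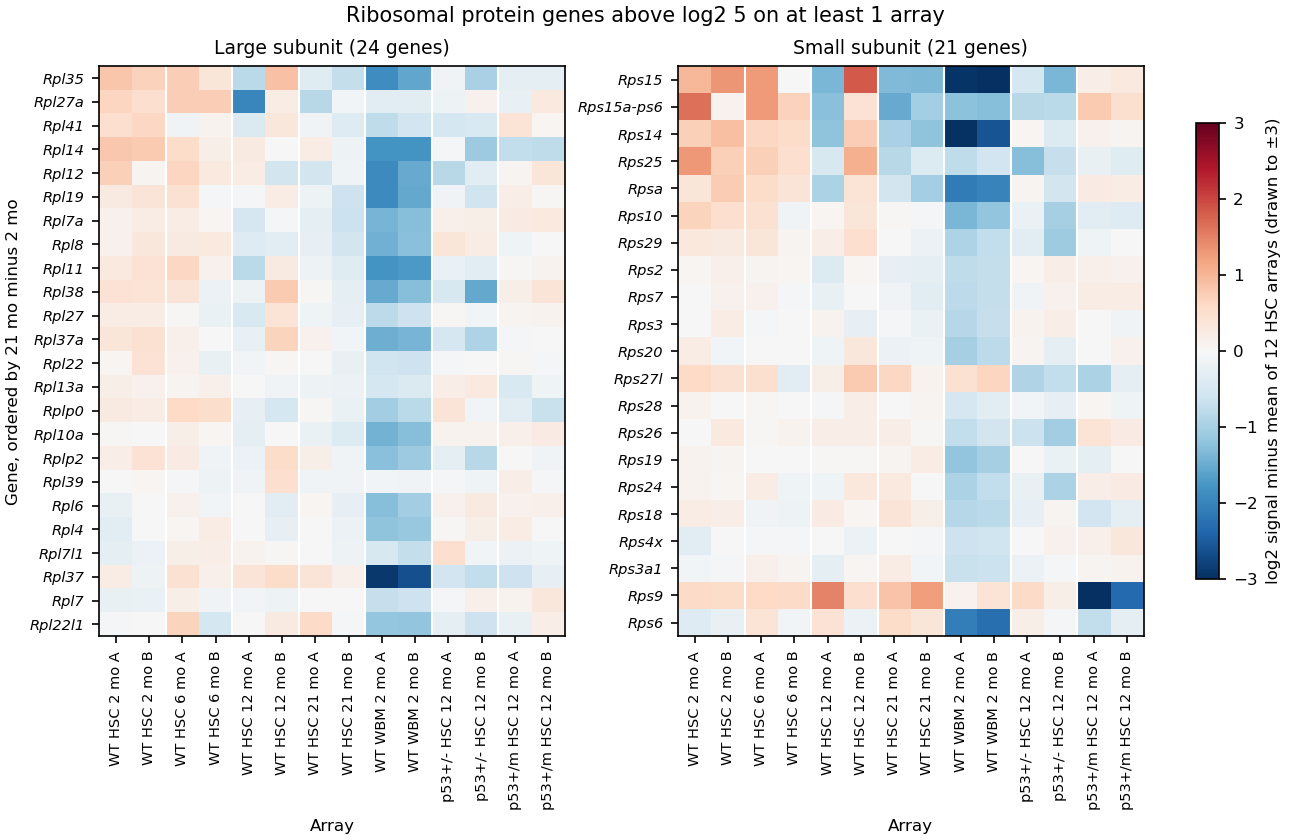
The 45 detected genes in rows, large subunit on the left and small subunit on the right, ordered by the 21 mo minus 2 mo difference, and the 14 arrays in columns. Color is the log2 signal minus the gene's mean over the 12 HSC arrays, drawn to ±3; both WBM columns are blue for nearly all genes, and the upper small subunit rows (Rps15, Rps14) are blue on WT HSC 12 mo A and both 21 mo arrays.

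A few facts of the arrays touch the results. Array medians lay between 3.93 and 4.10. The 18S ribosomal RNA controls, which read ribosomal RNA carried into the amplified material, varied widely among the HSC arrays. The 5′ probe set of 18S read 10.91 and 10.88 on the 2 mo HSC arrays, 11.19 and 8.28 at 6 mo, 4.66 and 9.68 at 12 mo (A and B), and 4.84 and 5.44 at 21 mo. On WBM it read 5.32 and 5.14, on p53+/- HSC 8.92 and 7.96, and on p53+/m HSC 5.71 and 7.18. High readings thus fell on 2 mo, 6 mo and 12 mo B, and low readings on 12 mo A, 21 mo and WBM. The labelled cells were checked by markers: 11 HSC markers had a median of 9.61 in 2 mo HSC and 5.73 in WBM, and of 7 erythroid markers 6 were under log2 5 on both arrays of each HSC group while none was in WBM.

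Across the 7 groups the detected genes formed a simple order. WBM was the lowest of the 7 groups for 38 of the 45 genes. The median gene lay 1.16 below its 2 mo HSC level in WBM, 0.04 below it in 6 mo HSC, 0.17 below it in 12 mo WT HSC and 0.32 below it in 21 mo HSC. It lay 0.29 below that level in p53+/- HSC and 0.24 below it in p53+/m HSC. The medians of the 2 arrays of a group differed with an SD between 0.0048 (2 mo HSC) and 0.23 (12 mo WT HSC), so WBM stood apart from every HSC group by more than this spread, whereas the 6 mo and 2 mo medians did not. The large and small subunits moved side by side: at 21 mo their medians lay 0.37 and 0.22 below 2 mo, in WBM 1.30 and 0.96 below, and the difference between subunits was not tested.

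**Figure D2:**
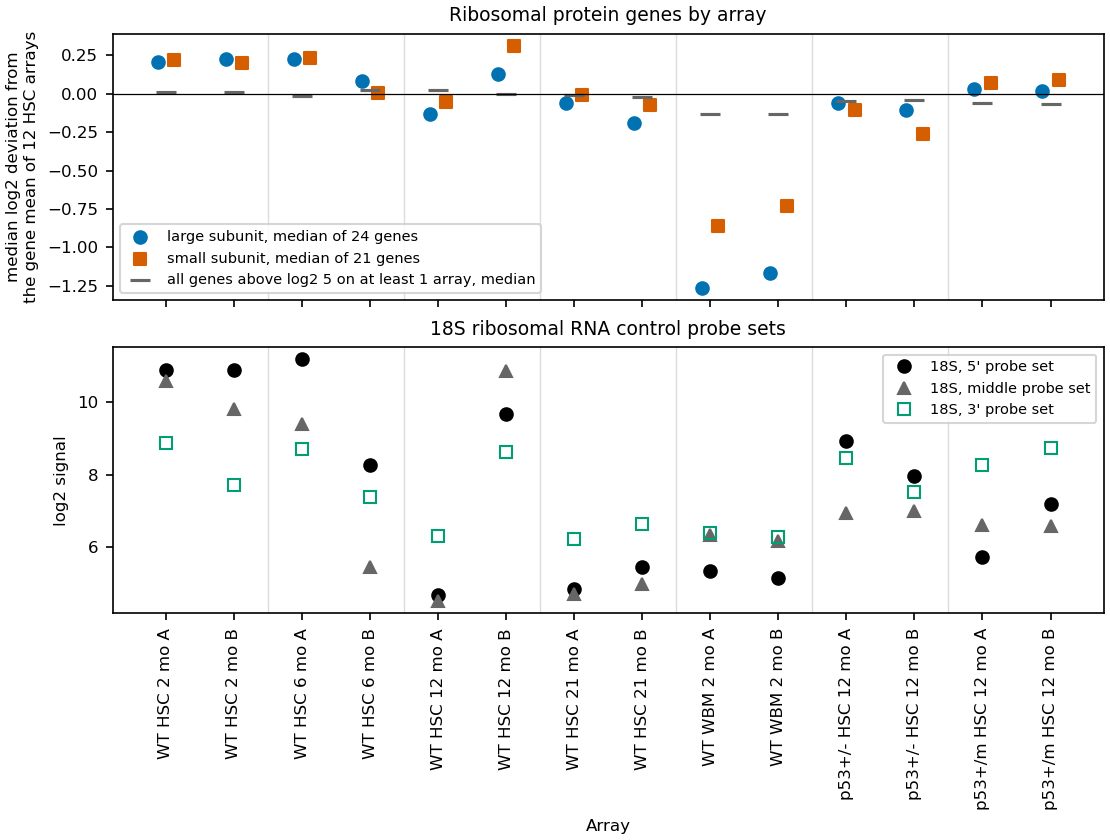
Upper panel: median log2 deviation from the gene's mean over the 12 HSC arrays for the 24 large and 21 small subunit genes detected and for all genes above log2 5 on at least 1 array, by array. Lower panel: log2 signal of the 3 18S control probe sets; the WBM arrays are the lowest for both subunits, and the 18S 5′ signal runs from 4.66 on 12 mo A to 11.19 on 6 mo A.

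Ribosomal protein messages were higher in HSC than in the marrow they come from. At 2 mo, 24 of the 49 genes rose in HSC relative to WBM (adjusted p under 0.05 and at least 2-fold) and none fell (none also at an unadjusted p under 0.05 with a 2-fold difference, beside 11.7% of probe sets), against a background of 11% of the 22626 probe sets higher and 9.69% lower by the same rule. The difference was positive for 46 of the 49, with a median of 1.13 on the log2 scale, while the median over all 12393 genes was -0.01. Of the large subunit 16 of 26 genes rose and of the small subunit 8 of 23. Without the fold threshold 37 of the 49 passed as higher and none as lower, beside 13% of probe sets higher. The comparison asks which messages stem cells hold at another level than unsorted marrow, and in bulk RNA of WBM fewer cells of a type and less RNA per cell cannot be told apart.

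The largest difference was that of Rps15, a protein of the head of the small subunit near the decoding site. Its signal was 12.97 and 13.29 in 2 mo HSC and 9.02 and 8.79 in WBM, so the groups did not overlap. The difference was 4.22 (SE 1.02), or 18.6-fold, with an adjusted p of 0.0304. The SE pools the spread of all WT groups, and for Rps15 the 12 mo pair was the widest (SD 2.28, beside 0.23 in 2 mo HSC and 0.16 in WBM). Rps14, whose loss of 1 copy accounts for the red cell defect of the 5q- syndrome, read 14.03 and 14.22 in HSC and 10.34 and 10.72 in WBM. It rose by 3.59 (SE 0.59), adjusted p = 0.00736. Rpsa, a small subunit protein also known as the laminin receptor, read 13.58 and 13.97 in HSC and 11.11 and 11.20 in WBM, and rose by 2.62 (SE 0.44), adjusted p = 0.00797. Rps6, the substrate of S6 kinase downstream of mTOR, read 10.71 and 10.86 in HSC and 9.02 and 8.82 in WBM. Its rise was 1.86 (SE 0.25), adjusted p = 0.00328.

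Among large subunit genes Rpl37 and Rpl14 led. Rpl37 read 9.97 and 9.60 in HSC and 6.84 and 7.10 in WBM, and rose by 2.81 (SE 0.18), adjusted p = 0.000205. Rpl14 read 10.74 and 10.71 in HSC and 8.14 and 8.13 in WBM, and rose by 2.59 (SE 0.18), adjusted p = 0.000246. In both genes the arrays of a group lay within 0.37 of each other. Rpl35 rose by 2.48 (SE 0.52, adjusted p = 0.0188), Rpl12 by 2.10 (SE 0.35, adjusted p = 0.00809) and Rpl19 by 2.05 (SE 0.24, adjusted p = 0.00213). Rpl11, the partner of Rpl5 and of 5S RNA that binds MDM2 when free, read 13.13 and 13.27 in HSC and 11.06 and 11.12 in WBM, and rose by 2.11 (SE 0.36), adjusted p = 0.00843.

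Grouped by role, both measured proteins of the P stalk, the arm that recruits elongation factors, rose: Rplp0 by 1.17 and Rplp2 by 1.48. Of 8 measured genes of Diamond-Blackfan anemia 4 rose, namely Rpl11, Rps10 (1.85), Rps19 (1.18) and Rps29 (1.13). The other 4 had differences of 0.78 (Rps26), 0.81 (Rps7), 0.92 (Rps24) and 0.93 (Rpl27), under the 2-fold threshold on the probe set used. On the mean of all probe sets of a gene, Rps7 (1.04), Rps24 (1.29) and Rpl27 (1.43) passed the threshold. Rps19, the gene most often mutated in that anemia, read 14.73 and 14.69 in HSC and 13.44 and 13.62 in WBM, with an SE of 0.07 and an adjusted p of 0.000144. Rps2 and Rps3, which line the entry of the mRNA channel, differed by 0.85 and 0.88 with adjusted p of 0.00789 and 0.00774, below 2-fold. Of the exit tunnel proteins Rpl4 rose by 1.03 and Rpl39 differed by 0.12. Rpl22, the gene for which Rpl22l1 is named, differed by 0.84 (1.03 without 2 mo HSC A). On the mean of its probe sets it differed by 1.41 and passed the threshold.

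Of the 6 measured paralogs (Rpl22l1, Rpl3l, Rpl39l, Rpl7l1, Rps27l, Rps4l) none passed the threshold, Rpl22l1 did so at an unadjusted p under 0.05, and 3 were not detected. Rps27l, a paralog of Rps27 and a known p53 target, read 10.70 and 10.56 in HSC and 10.57 and 10.76 in WBM, a difference of -0.03 (SE 0.34). Rpl22l1, which can replace Rpl22, read 12.46 and 12.52 in HSC and 11.34 and 11.31 in WBM, a difference of 1.16 (SE 0.41) with an adjusted p of 0.101, which was 0.0209 without either 6 mo array. Rps9, a core protein that binds early in assembly, read 13.88 and 13.86 in HSC and 13.41 and 13.71 in WBM on the probe set used, a difference of 0.31 (SE 0.33).

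The count of genes past the threshold varied with the array that was left out. Without WBM array A it was 15 of the 49, where a single array stands for WBM and is assumed to vary like the others. The call of Rps15 was lost without either 2 mo HSC array, either 21 mo array or either WBM array (adjusted p between 0.0607 and 0.132), and with the letters A and B as a block (0.0523). That of Rpl35 was lost without either 2 mo HSC array or either WBM array (adjusted p between 0.071 and 0.101). That of Rpl41 was lost without any of these 4 arrays (adjusted p between 0.0669 and 0.105), and that of Rpl38 without either 2 mo HSC array or WBM A (between 0.0598 and 0.0726). Without 2 mo HSC B the calls of Rpl11, Rplp2 and Rpsa were also lost (adjusted p between 0.0519 and 0.0594), and without WBM A those of Rpl11, Rpl12 and Rplp2 (between 0.0511 and 0.06). In both cases the differences of Rpl4 and Rpl6 were under 2-fold. After quantile normalization Rpl4, Rplp0, Rps18 and Rps29 lay under 2-fold, at 0.85, 0.99, 0.79 and 0.94, and the mean of the probe sets of Rps6 gave 0.97. WBM was low on the 18S 5′ probe set, as were the 21 mo HSC arrays, which differ from WBM in age too. The 18S middle probe set read 6.3 and 6.2 on WBM and 4.7 and 5.0 on the 21 mo HSC arrays. The 21 mo HSC means lay above the WBM means for 41 of the 45 detected genes, by 1 or more for 20 of them, with a median of 0.86. There the difference of Rps15 was 1.71, that of Rps14 1.69, that of Rps6 2.62 and that of Rpl37 3.04. The share over all genes was not computed for 21 mo HSC against WBM, so these counts have no background beside them. All 12 HSC arrays, of any age and genotype, lay above both WBM arrays for 34 of the 45 genes, beside 13.8% of all probe sets. Comparing the 2 mo arrays alone, 44 of the 45 lay above WBM without overlap, beside 29.1%. The proliferation genes moved the other way, with 12 of 16 lower in HSC than in WBM and a median of -2.89. The summed level of 11 neutrophil markers was between 17.38 and 17.46 (log2) in WBM and between 8.65 and 12.17 in HSC, and that of 7 erythroid markers between 16.19 and 16.20 and between 9.18 and 10.76. The parts of 18S and of cell makeup in the ribosomal protein difference were not tested.

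**Figure D3:**
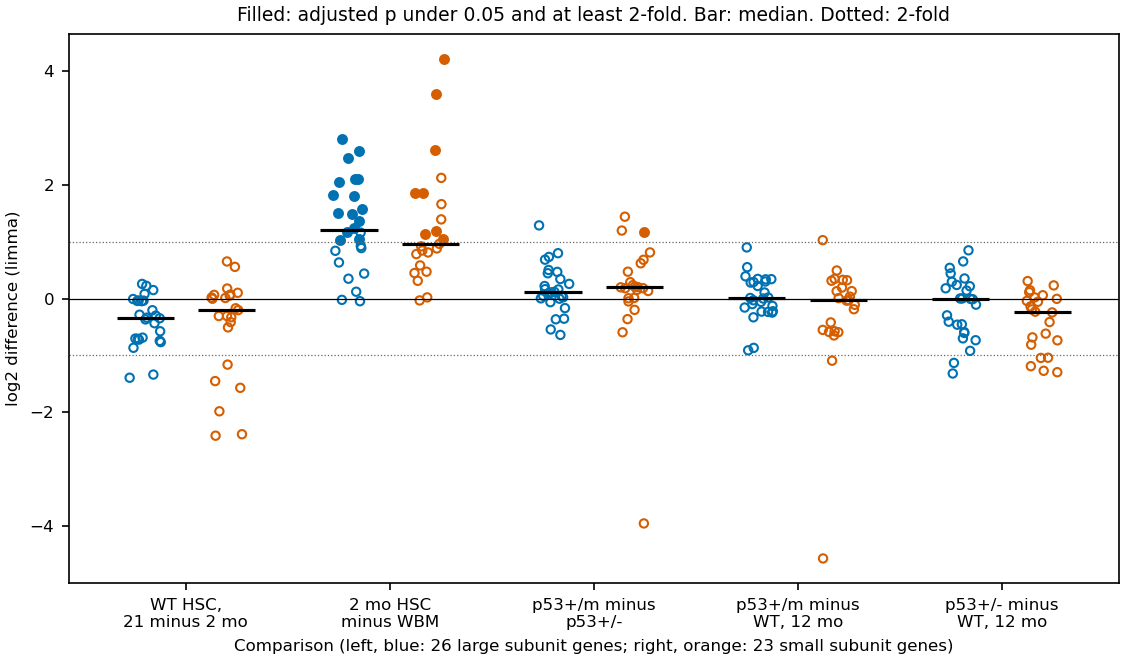
Log2 difference of each gene in the 5 comparisons, large subunit (26 genes) left and small subunit (23 genes) right. Filled points passed the threshold (24 in HSC against WBM and 1, Rps26, in p53+/m against p53+/-), bars are medians, and dotted lines mark 2-fold.

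With age none of the 49 genes passed the threshold in either direction in limma on the probe set that stood for it, where the background was 1.32% of probe sets higher and 1.51% lower. At an unadjusted p under 0.05 with a 2-fold change, 6 of the 49 genes were lower at 21 mo and none was higher, beside 6.56% of probe sets lower and 6.66% higher. Of the 52 other probe sets of these genes 2 passed as lower, of Rpl41 (-1.12, SE 0.14, adjusted p = 0.0239) and of Rpl13a (-1.09, SE 0.20, adjusted p = 0.0499), whose probe sets in use gave -0.70 and -0.35. The estimated change over 2 to 21 mo was negative for 36 of the 49, with a median of -0.31 beside -0.02 over all genes. Without overlap of the 2 arrays, 33 of the 49 were lower at 21 than at 2 mo, beside 48% of all probe sets, and 4 were higher, beside 20.9%. Dropping the fold threshold gave 1 gene lower (1.9% of probe sets), Rpl13a, whose 2 mo arrays read 15.29 and 15.25 and whose 21 mo arrays read 14.96 and 14.93. Its change was -0.35 (SE 0.05), adjusted p = 0.0331. RPL13A is known as a brake on translation of inflammatory messages outside the ribosome.

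At 21 mo 7 of the 45 detected genes, a group set by that difference itself, lay at least 1 below their 2 mo mean, namely Rps15, Rps15a-ps6 (annotated as a pseudogene of Rps15a), Rps14, Rps25, Rpsa, Rpl27a and Rpl35. By the change estimated in limma, and not by group means, the next detected genes were Rpl12 (-0.87, SE 0.35), Rpl8 (-0.77, SE 0.19), Rpl11 (-0.74, SE 0.37) and Rpl14 (-0.72, SE 0.17). They were lower without overlap and not past the threshold. For Rps15 the arrays read 12.97 and 13.29 at 2 mo, 13.23 and 11.96 at 6 mo, 10.59 and 13.81 at 12 mo (A and B), and 10.64 and 10.60 at 21 mo. The 21 mo arrays lay below all 2 mo and 6 mo arrays and level with 12 mo A, while 12 mo B was the highest of the 8. The change was -2.41 (SE 0.97) with an adjusted p of 0.233.

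Rps14 read 14.03 and 14.22 at 2 mo, 13.94 and 13.85 at 6 mo, 12.10 and 14.05 at 12 mo, and 12.33 and 12.10 at 21 mo, a change of -1.98 (SE 0.55, adjusted p = 0.114). Rpsa read 13.58 and 13.97, 13.76 and 13.60, 12.27 and 13.62, and 12.66 and 12.18 at the same ages, a change of -1.45 (SE 0.43, adjusted p = 0.129). Both showed the step of Rps15, with 12 mo A beside the 21 mo arrays. The changes of the other 4 were -2.39 (SE 0.72, adjusted p = 0.134) for Rps15a-ps6, -1.57 (SE 0.48, adjusted p = 0.136) for Rps25, -1.39 (SE 0.76, adjusted p = 0.388) for Rpl27a and -1.34 (SE 0.49, adjusted p = 0.196) for Rpl35.

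The 12 mo arrays lay far apart in these genes. All 7 were lower on 12 mo A than on 12 mo B by at least 1, as was Rpl11, and A minus B was -3.22 for Rps15, -2.17 for Rpl27a, -1.95 for Rps14 and -1.35 for Rpsa. No more than 2 of the 45 genes differed by 1 or more between the arrays of any other group. The 12 mo pair was the widest over all genes above log2 5 too, with a median absolute difference of 0.60, beside 0.16 to 0.31 in the other groups and 0.35 over the ribosomal protein genes at 12 mo. Each mean of WT HSC at 12 mo, and each genotype comparison made with it, thus rests on unlike arrays, and whether the arrays differ in their cells or in their preparation was not tested. The median deviation of the 7 genes from their HSC means was 0.83 and 0.71 on the 2 mo arrays, -1.21 and 0.74 on 12 mo A and B, and -0.83 and -1.02 on the 21 mo arrays. The 18S 5′ signal was 10.91 and 10.88, 4.66 and 9.68, and 4.84 and 5.44 on the same arrays. In p53+/- HSC the deviations were -0.15 and -0.68, and the 18S 5′ signal was 8.92 and 7.96. In p53+/m HSC the deviations were 0.13 and 0.23, and the 18S 5′ signal was 5.71 and 7.18. The 18S 3′ probe set read 8.47 and 7.51 in p53+/- HSC and 8.28 and 8.73 in p53+/m HSC. The part of 18S in the differences was not tested.

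The count of genes past the threshold depended on the 12 mo arrays. Without 12 mo A, Rps14 and Rpsa were called lower with age. Without 12 mo B, Rps14, Rps15, Rps25, Rpl35 and the undetected Rps27 were called lower, and without both arrays, an alternative chosen after seeing the data, Rps14, Rps25, Rpsa, Rpl35 and Rps27 were. With probe sets under log2 5 removed, Rps14, Rps15a-ps6, Rps25 and Rpsa were called. Rps14, the gene that passed in all 4 of these, then had an adjusted p between 0.00906 and 0.0317. Summed markers of other cells also differed with age: those of neutrophils were between 10.12 and 10.78 at 2 mo and between 10.95 and 12.17 at 21 mo, those of monocytes between 6.70 and 6.88 and between 8.0 and 9.31. Those of 7 B lineage markers were between 7.99 and 8.22 at 2 mo and between 5.96 and 6.29 at 21 mo. Of these 7, 6 were under log2 5 on both arrays at 2 mo and 7 at 21 mo. The median change of the B lineage markers with age was -0.12 and the lowest -3.40. At 2 mo 6 of 11 neutrophil and 5 of 7 monocyte markers were under log2 5 on both arrays, and at 21 mo 3 and 2 were. Their part in the result was not tested.

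The estimate was positive for 13 of the 49 genes. Rps6 had the highest estimate, with arrays at 10.71 and 10.86 at 2 mo, 11.49 and 11.00 at 6 mo, 11.51 and 10.91 at 12 mo, and 11.64 and 11.44 at 21 mo. The 21 mo arrays lay above the 2 mo arrays, and the change was 0.65 (SE 0.26) with an adjusted p of 0.226. Rps9 had a change of 0.56 (SE 0.31) and Rpl22l1 one of 0.26 (SE 0.38). Rps26 (0.02, SE 0.11) and Rps19 had the estimates nearest 0 of the anemia genes. Rps19 read 14.73 and 14.69 at 2 mo and 14.69 and 14.83 at 21 mo, a change of 0.07 (SE 0.05). Rpl11 read 13.13 and 13.27 at 2 mo and 12.69 and 12.48 at 21 mo, a change of -0.74 (SE 0.37, adjusted p = 0.341). The P stalk genes Rplp0 and Rplp2 had estimates of -0.57 (SE 0.31) and -0.20 (SE 0.26), and Rps2 and Rps3 of -0.41 (SE 0.14) and -0.20 (SE 0.13), none past the threshold. The exit tunnel genes Rpl4 and Rpl39 had changes of -0.04 (SE 0.18) and -0.03 (SE 0.21).

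**Figure D4:**
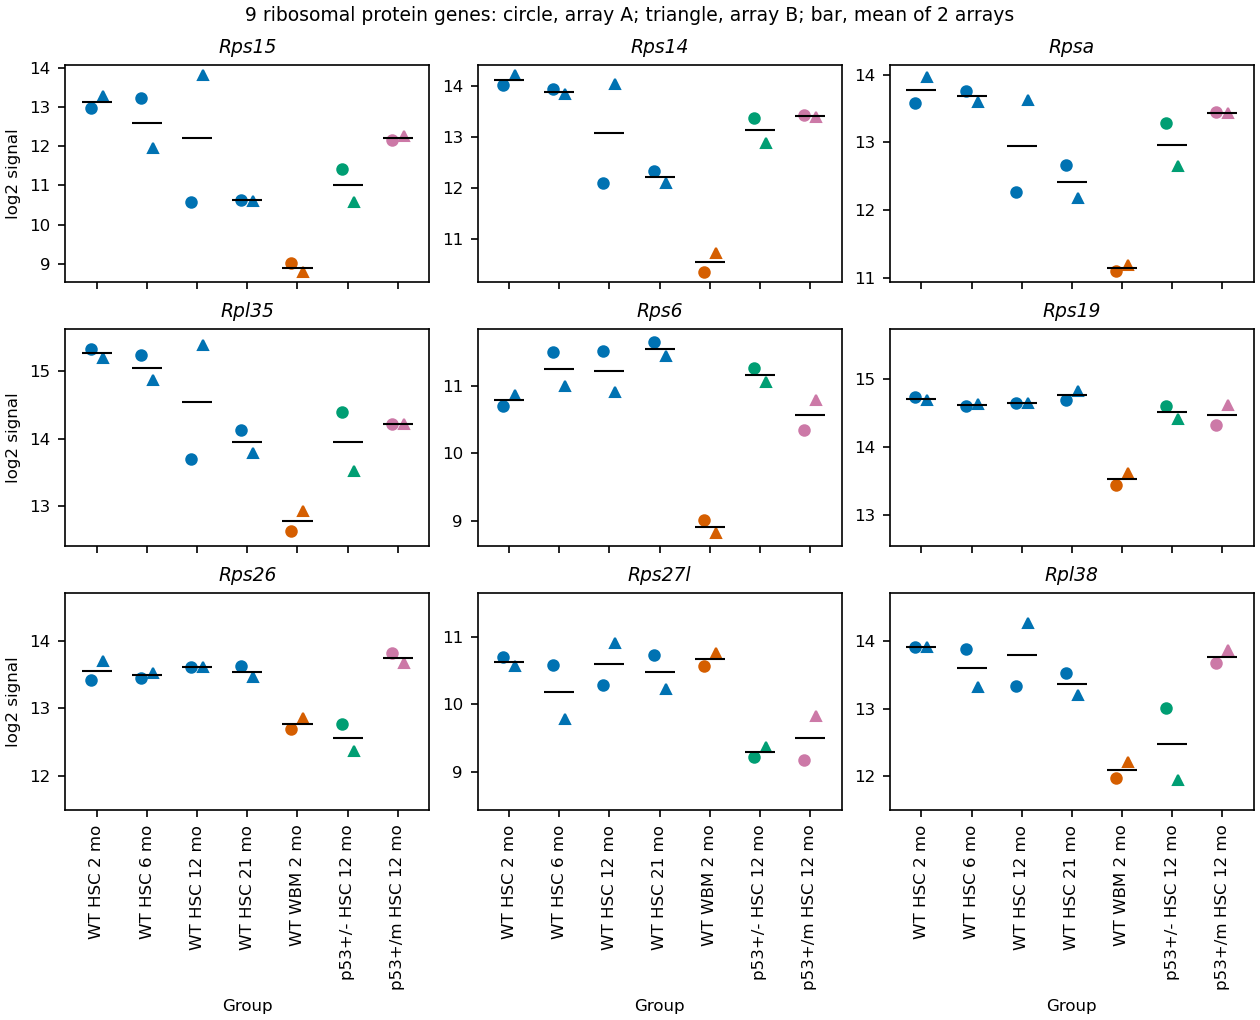
Log2 signal of 9 genes on each array (circle, A; triangle, B) by group, with the mean of 2 arrays as a bar; each panel has its own range. Rps15, Rps14, Rpsa and Rpl35 show the low 12 mo A and 21 mo arrays, Rps6 and Rps19 do not, and Rps26 is lowest in p53+/- HSC (12.57).

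The 2 altered p53 alleles were compared at 12 mo, the p53+/m and p53+/- HSC with each other and each with WT HSC. The 3 comparisons share their arrays and are not independent. Rps26 rose in p53+/m relative to p53+/- HSC, 1 of the 49 genes beside 0.084% of probe sets higher, and none fell, beside 0.11% lower. In p53+/m against WT none of the 49 passed, beside 0.208% higher and 0.239% lower, and 2 genes were lower and none higher at an unadjusted p under 0.05 with a 2-fold difference, beside 2.39% and 1.78% of probe sets. In p53+/- against WT none passed, beside 0.0796% higher and 0.084% lower, and by the unadjusted rule 6 were lower and none was higher, beside 1.81% and 1.16%. The median differences over the 49 genes were 0.17, 0.00 and -0.14 in the 3 comparisons, beside 0.01, -0.01 and -0.02 over all genes.

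RPS26 sits at the mRNA exit channel of the small subunit and is another gene of Diamond-Blackfan anemia. Rps26 read 12.76 and 12.37 in p53+/- HSC, 13.82 and 13.66 in p53+/m HSC and 13.61 and 13.61 in WT HSC of 12 mo. All 8 WT HSC arrays lay between 13.41 and 13.70, so the p53+/- arrays were those that stood apart. The difference of p53+/m from p53+/- was 1.18 (SE 0.15), or 2.26-fold, with an adjusted p of 0.0362, and that of p53+/- from WT was -1.04 (SE 0.15) with an adjusted p of 0.0737. The first call was kept in 10 of 22 alternatives. It was lost without either 2 mo, 6 mo, 21 mo or p53+/m array or without p53+/- B (adjusted p between 0.0521 and 0.0973), with the letters A and B as a block (0.0754), with low probe sets removed (0.0816) and with the 6 arrays of 12 mo alone (0.273).

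Rpl38 and Rps29 were also lowest in p53+/- HSC among the HSC groups of 12 mo, with a wider gap between the p53+/- arrays. RPL38 is known for its part in translation of Hox messages. Rpl38 read 13.01 and 11.95 in p53+/- HSC, 13.67 and 13.86 in p53+/m HSC, and 13.33 and 14.26 in WT HSC of 12 mo, a difference of 1.29 (SE 0.42, adjusted p = 0.358) between the p53 genotypes and of -1.32 (SE 0.42, adjusted p = 0.389) between p53+/- and WT. Rps29 read 14.03 and 13.26 in p53+/-, 14.21 and 14.32 in p53+/m, and 14.53 and 14.84 in WT. Its p53+/- HSC differed from WT by -1.04 (SE 0.24, adjusted p = 0.211). Its p53+/m HSC lay below WT too without overlap, by -0.42 (SE 0.24, adjusted p = 0.68). Neither gene passed the threshold. Rpl37 was lower in both p53 genotypes, at 9.16 and 9.01 in p53+/- and 9.11 and 9.50 in p53+/m beside 10.13 and 10.30 in WT, with differences of -1.13 (SE 0.19, adjusted p = 0.116) and -0.91 (SE 0.19, adjusted p = 0.114). Without WT 12 mo A, Rpl37, Rpl37a, Rps15, Rps25, Rps26 and Rps27 were called lower in p53+/- than in WT, and without p53+/- A, Rps26 and Rps29 were.

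Rps27l read 9.22 and 9.38 in p53+/- HSC and 9.18 and 9.83 in p53+/m HSC, beside 10.28 and 10.90 in WT HSC of 12 mo. Both p53 genotypes lay below WT without overlap at that age. The differences were -1.29 (SE 0.36, adjusted p = 0.292) and -1.09 (SE 0.36, adjusted p = 0.306), and p53+/m differed from p53+/- by 0.20. WT HSC of 6 mo B read 9.79, within the p53+/m range.

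Rpl8 was higher in p53+/- HSC (13.88 and 13.76) than in WT of 12 mo (13.14 and 13.19), a difference of 0.65 (SE 0.12, adjusted p = 0.119). Rplp0 was also higher in p53+/- than in WT, by 0.54 (SE 0.19, adjusted p = 0.466), and lower in p53+/m than in p53+/- by 0.64 (SE 0.19, adjusted p = 0.298). Rps6 differed by -0.59 (SE 0.26, adjusted p = 0.556) between p53+/m and p53+/-. Rpl7a read 14.60 and 14.63 in p53+/m and 13.84 and 14.28 in WT, a difference of 0.55 (SE 0.16, adjusted p = 0.249). Rpl27a and Rps15a-ps6 had estimates of 0.90 and 1.03 in p53+/m against WT, with adjusted p of 0.782 and 0.73. WT 12 mo A read 6.58 for Rpl27a where 12 mo B read 8.74, a gap larger than the difference. Without WT 12 mo B, Rpl27a and Rps14 were called higher in p53+/m than in WT and Rps9 lower, and without 12 mo A Rps27 was called lower.

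Rps9 gave the largest difference of the 49 genes in these comparisons, on 1 of its 3 probe sets. On that probe set the p53+/m arrays read 8.49 and 10.98, and the other 12 arrays lay between 13.41 and 14.80. The difference from WT was -4.57 (SE 0.74, adjusted p = 0.0582) and that from p53+/- was -3.96 (SE 0.74, adjusted p = 0.104). The other 2 probe sets did not follow: one read 11.97 and 11.95 in p53+/m and 12.27 and 11.80 in WT of 12 mo, the other 9.47 and 9.04 in p53+/m and 9.32 and 7.6 in WT. The mean of the probe sets of the gene gave -1.28 against WT. The probe set used is of the type (suffix x_at) that can also bind other transcripts. Of the probe sets that stand for the 49 genes 14 are of this type, among them those of Rps14, Rpl35, Rpl37 and Rpl38. The difference from WT was called in 7 of 22 alternatives, among them without either p53+/m array (adjusted p of 0.0341 and 0.00537), without WT 12 mo B (0.0318) and with all 14 arrays (0.0272). The difference from p53+/- was called without p53+/m B (0.00762) and with low probe sets removed (0.0464).

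**Figure D5:**
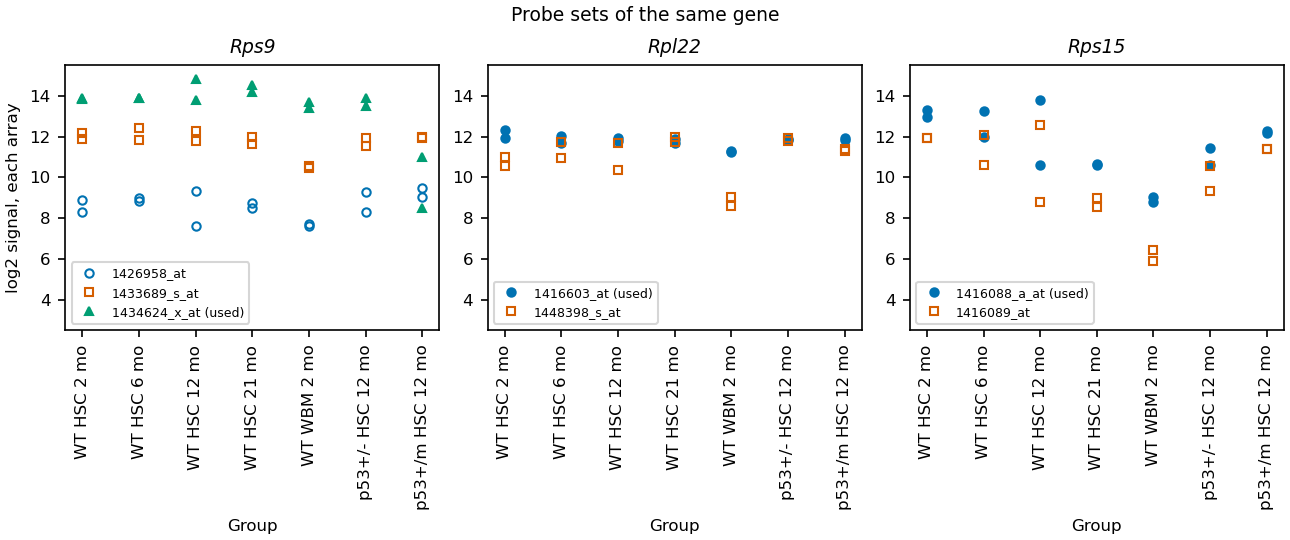
Log2 signal on each array by group for the probe sets of Rps9, Rpl22 and Rps15 detected on the arrays, filled where the probe set stands for the gene. The p53+/m arrays of Rps9 are low (8.49 and 10.98) on 1 probe set of 3, the probe sets of Rpl22 lean apart with age, and those of Rps15 share their pattern.

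For 19 of the genes several probe sets were detected, which gives a reading of each difference on other probes of the same RNA. In HSC against WBM all detected probe sets of a gene had the same sign for 18 of the 19 genes, and with age for 14. In the genotype comparisons that held for 13, 11 and 11. The second probe set of Rps15 gave 5.78 (SE 1.20) for HSC against WBM and -3.08 (SE 1.13) with age, and that of Rps14 gave 4.38 (SE 0.80) and -2.51 (SE 0.74). All 6 probe sets of Rpl35 gave a change with age between -1.45 and -1.12. The one at -1.12 read 5.52 on 2 mo B and under log2 5 on all other arrays. Rpl37a, a zinc-binding protein of the large subunit, had an estimate of -0.28 with age on the probe set used and of -1.73 (SE 0.66) and -1.90 (SE 0.63) on the other 2, none past the threshold. Rpl22 differed in direction, at -0.30 (SE 0.17) on the probe set used and 0.86 (SE 0.51) on the other. Opposite signs more than 1 apart were also seen for Rpl35 and Rps24 in p53+/m against WT and for Rpl37a and Rps24 in p53+/- against WT. For Rpl35 the positive estimate (0.63) was that of the same low probe set.

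The genes whose annotated start is a C with 4 pyrimidines after it, those of the first 7 windows printed above, are the detected ones of 8 (the other is Rps27) and had a median difference of 1.85 between HSC and WBM, beside 0.98 for the 32 other detected genes with promoter sequence. With age their medians were -0.43 and -0.29. Both are descriptions of 7 genes, and Rps15 and Rpsa, with the large differences, are not among the 7.

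The rest of the translation machinery gives the setting of these values. Fau, which encodes a ubiquitin-like protein fused to RPS30, was the single measured one of 3 further subunit genes that do not carry an Rpl or Rps symbol, and rose in HSC relative to WBM by 1.75 (SE 0.28, adjusted p = 0.00679). Of 99 measured genes of ribosome biogenesis 31 rose and 2 fell in HSC relative to WBM, beside 11% and 9.69% of all probe sets. Las1l (3.77), Rrp1b (3.32) and Wdr74 (3.14) were in front, and Ncl (-2.02) and Rpf2 (-1.46) were lower. With age 8 of the 99 fell and none rose, beside 1.51% and 1.32% of all probe sets. By the unadjusted rule 14 were lower and 7 higher, beside 6.56% and 6.66%. Among the 8 were Noc2l (-1.94), Wdr74 (-1.91) and Las1l (-1.69), all factors of large subunit assembly. Of 12 genes of RNA polymerase I, which makes the ribosomal RNA, 5 rose in HSC relative to WBM and Ubtf fell with age by 1.27 (SE 0.22, adjusted p = 0.045).

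Of 35 initiation factors 12 rose in HSC relative to WBM and Eif2b2 fell with age by 1.07. Among all probe sets 11% rose and 9.69% fell in HSC relative to WBM, and 1.32% rose and 1.51% fell with age. Of 14 genes listed with elongation and release factors Gspt2 rose (2.61) and Pelo fell (-1.08) in HSC relative to WBM. Btf3, on that list but itself neither an elongation nor a release factor, fell in p53+/m relative to p53+/- (-1.50, adjusted p = 0.0358). Of 18 genes listed as regulators of translation Eif4ebp1, Eif2ak4 and Mycn rose and Eif2ak1 and Eif2ak3 fell in HSC relative to WBM. Mycn, a transcription factor gene on that list, rose with age by 2.13. The 74 mitochondrial ribosomal protein genes had 18 members higher and none lower in HSC against WBM, with a median of 0.70. By the unadjusted rule 2 were lower, beside 11.7% of probe sets. With age 7 of the 74 fell and none rose, with a median change of -0.73, beside none of the 49 cytosolic genes and a median of -0.31. By the unadjusted rule 24 of the 74 were lower and none was higher, beside 6.56% and 6.66% of probe sets. In the genotype comparisons no mitochondrial ribosomal protein gene passed in limma. By the unadjusted rule at most 2 of the 74 were higher and at most 9 lower. Both counts were those of p53+/- against WT, beside 1.16% and 1.81% of probe sets.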

How the data were processed

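The deposited values are log2 signals per probe set that the authors made with GC-RMA after MAS 5.0 image analysis. GC-RMA corrects background by the GC content of probes and normalizes between arrays, so a level is relative to the whole array. Its version, and whether the arrays went through it together, is not stated in these sources. The 2 arrays per group limit the precision, and p-values measure the spread between these arrays.

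All 22626 probe sets, without 64 controls, were tested with limma 3.58.1 in R 4.3.3 (lmFit, eBayes) and Benjamini-Hochberg adjustment; a call needs an adjusted p under 0.05 and 2-fold. Age was a quadratic trend over the 8 WT HSC arrays (21 minus 2 mo), HSC against WBM group means over 10 WT arrays, and genotypes group means over 12 HSC arrays. The model was tested on simulated data. Probe sets carry 1 symbol in 20380 cases, several in 691 and none in 1555. Of 290 listed genes of translation and of cell markers 249 were measured, some matched through their gene ID.

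The ribosomal protein genes and lists were chosen with earlier results of these data known. The genes named are, per comparison, the 10 largest differences past the threshold in each direction or, where none passed, the 3 largest, those of set roles, those not detected, the 5 with the widest range of group means (Rps9, Rps15, Rps14, Rpl37, Rpsa), those with opposed probe sets, and up to 3 per list; Rpl6, Rpl8, Rpl13a, Rpl35, Rpl37a, Rpl41, Rps18, Rps25 and Rps29 and some list genes were also named after their values were seen. Promoters are those of RefSeq, GRCm38.p6.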

Additional observations from a re-analysis of the deposited data

How the results depend on the processing

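The 5 comparisons were recomputed leaving out each array and under other normalizations, filters, thresholds, models and choices of probe set; of the recomputed counts and medians 283 kept within the limits set and 39 moved. Of the 11 called genes followed singly (10 in HSC against WBM, and Rps26) none changed sign, and 28 of their values lost the call. Estimates of genes not called changed sign under at least 1 alternative for 15 of the 49 with age (Rpl22 from -0.46 to 0.28), 4 in HSC against WBM, and 14, 25 and 17 in the genotype comparisons in the order given here (Rpl27a in p53+/m against WT from -0.18 to 1.98). With age, the lower calls numbered 0 to 5 leaving out 1 array, 5 without both 12 mo arrays, 4 with low probe sets removed and 1 without the fold threshold, and the median ranged from -0.37 to -0.20 leaving out 1 array and was -0.22 after quantile normalization. For HSC against WBM, the higher calls ranged from 15 to 27 leaving out 1 array and were 37 without the fold threshold; the median was 1.01 after quantile normalization and 1.29 with the mean of all probe sets. For p53+/m against p53+/-, the 1 higher call became 0 with the replicate block, with low probe sets removed and with the 12 mo arrays alone, and ranged from 0 to 1 leaving out 1 array, as did the lower calls, which were 1 with low probe sets removed. For p53+/m against WT, higher calls ranged from 0 to 2 and lower calls from 0 to 1 leaving out 1 array, and the lower call of Rps9 appeared on centred arrays, with low probe sets removed, with an intensity trend in the prior and with all 14 arrays (1 each); the median ranged from -0.19 to 0.14. For p53+/- against WT, lower calls ranged from 0 to 6 leaving out 1 array and were 1 with all 14 arrays, and the median ranged from -0.38 to 0.0193. The causes were not tested beyond the arrays named. What the letters A and B stand for is not stated in the sample titles. Over 21 pairs of groups the A minus B differences of all probe sets correlated between -0.307 and 0.163, 2 of them above 0.1. A batch shared by part of the groups or acting on part of the genes was not tested. With the letters as a replicate block, HSC against WBM gave 23 higher calls and age 0.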
